A study of Homo sapiens with 6 samples.

Results

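The TCEAL and BEX genes are a family of small genes that lie close together on the long arm of chromosome X. The 8 described here, TCEAL1, TCEAL3, TCEAL4, TCEAL8, TCEAL9, BEX1, BEX2 and BEX4, were taken by symbol from a table of 35238 symbols. They were selected on their counts in this same comparison, because TCEAL8 and TCEAL9 had almost no reads in the DEGS1 knockout. The difference between genotypes for these 8 is therefore given as a description, and their calls in the fit are not read as a test. All 8 had at least 1 count in some library, and 6 passed the filter on low counts. BEX1 and BEX2 did not.

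HAP1 is an immortal human line derived from leukaemia cells, and it carries only a single copy of most chromosomes. RNA was sequenced from 3 libraries of HAP1 cells with a DEGS1 knockout and 3 of wildtype HAP1 cells, all untreated. DEGS1 encodes the desaturase that makes ceramide from dihydroceramide, and the series asks what its loss does to the cell. The labels do not say how many knockout clones were used or whether the replicates were separate cultures, so the spread behind the p-values may be technical.

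TCEAL proteins take their name from transcription elongation factor A (TFIIS), the factor that restarts RNA polymerase II after it has stalled, because part of their sequence resembles it. BEX proteins, for brain expressed X-linked, are small and largely unstructured, and some of them bind the p75 neurotrophin receptor. Both groups are mammalian, are strong in brain, and share the stretch of chromosome X with the related GPRASP and ARMCX genes.

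In the order of the RefSeq gene table, 41 genes of the count table lie in the stretch from TCEAL2 to TCEAL1, and 14 of them are TCEAL or BEX genes. BEX4 is followed by TCEAL8, then by TCEAL5, BEX2 and TCEAL7, then by TCEAL9 and BEX3, and RAB40A, TCEAL4, TCEAL3 and TCEAL1 close the stretch. TCEAL8 and TCEAL9 are therefore separated by 3 genes, and none of those 3 exceeded 4 counts in any library of either genotype. Summed over the libraries, the 3 genes held 10 counts in the knockout and 10 in wildtype.

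The promoters are shown because TCEAL8 and the members that kept their reads share a short element there, of which TCEAL9 holds a variant. The lines below give the 100 bases before the annotated start (for BEX4 the second of its annotated starts), 5′ to 3′, from RefSeq on GRCh38.p14, with the element CACGTG, or CATGTG in its place in TCEAL9, in capitals. TCEAL8 and TCEAL9 are the pair with almost no reads in the knockout, TCEAL5 lies between them, and BEX4 and TCEAL3 kept their reads.
TCEAL8 (chrX:103255156-103255255, minus strand): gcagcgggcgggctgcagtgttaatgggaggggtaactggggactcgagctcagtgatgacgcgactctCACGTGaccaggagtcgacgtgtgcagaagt
TCEAL9 (chrX:103356406-103356505, plus strand): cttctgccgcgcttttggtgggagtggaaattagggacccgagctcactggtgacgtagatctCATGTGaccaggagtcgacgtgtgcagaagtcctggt
TCEAL5 (chrX:103276751-103276850, minus strand): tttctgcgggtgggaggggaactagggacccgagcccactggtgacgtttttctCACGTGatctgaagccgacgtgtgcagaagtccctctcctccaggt
BEX4 (chrX:103215008-103215107, plus strand): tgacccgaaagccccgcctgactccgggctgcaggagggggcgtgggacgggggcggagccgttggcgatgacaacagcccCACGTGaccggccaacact
TCEAL3 (chrX:103607863-103607962, plus strand): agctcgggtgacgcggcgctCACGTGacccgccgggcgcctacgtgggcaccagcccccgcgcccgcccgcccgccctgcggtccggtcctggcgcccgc

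Within these 100 bases TCEAL8 and TCEAL9 shared the run gtgaccaggagtcgacgtgtgcagaagt, 28 bases long, which begins inside the capitals of both. Such runs were not particular to this pair. Of 78 pairs of family genes it ranked 5, behind BEX2 with BEX4 (45 bases), TCEAL3 with TCEAL2 (38), and TCEAL6 with TCEAL2 and with TCEAL3 (33 each). The longest run that TCEAL8 shared with any other family promoter was 16 bases, with TCEAL1 and with TCEAL5, and for TCEAL9 it was 18 bases, with TCEAL5. The element was then searched on both strands in windows of 300 bases, from 250 before to 50 after each annotated start. CACGTG, which reads the same on both strands, stood in a window of 7 of the 8 members and of 4 of the other 5 family genes that have a window in the table. It was found for 8.77% of all 27305 genes with a window. TCEAL9 held CATGTGACC instead, and BEX5 held neither. CATGTGACC is longer than CACGTG, so its share is not to be set against 8.77%. It was found for 0.568% of genes, and CACGTGACC, of the same length, for 1.53%. CACGTGACC stood in a window of 5 of the 8 members and of 2 of the other 5 family genes. No share was computed for CATGTG alone. CG dinucleotides numbered 14 in the window of TCEAL8 and 10 in that of TCEAL9, against a median of 14 over 35116 windows, and 5 to 30 over the windows of all 8 members. These are matches of letters and say nothing of binding or of methylation, which were not measured.

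Total counts per library ran from 19389644 to 27659835 in the knockout and from 17322756 to 28988522 in wildtype. Values are given as CPM, the count divided by the library size after TMM scaling (trimmed mean of M values), and 3 counts, the floor used here, equal 0.109 to 0.154 CPM in the knockout and 0.111 to 0.161 CPM in wildtype. DEGS1 stood at 9.49, 6.88 and 10.4 CPM in the knockout libraries, against 105, 123 and 95.5 CPM in wildtype. Wildtype replicate 2 stood apart. The median absolute log2 deviation of its genes from the other wildtype libraries was 0.302, against 0.114 to 0.209 for the remaining 5 libraries measured in the same way, so values without it are given where they differ. Of 13 neuron markers, the summed level was 193 to 208 CPM in the knockout and 174 to 185 CPM in wildtype. MAP2 carried the higher sum, and without it the sum was 117 to 153 CPM in the knockout and 147 to 160 CPM in wildtype. Most of that remainder was TUBB3, at 97.7 to 140 CPM in the knockout and 123 to 137 CPM in wildtype. Of the 8 neuron markers tested in edgeR, MAP2 and SNAP25 rose and NEFL fell (0.872, 0.0382 and 0.948 CPM in the knockout, 11.6, 5.72 and 12.6 CPM in wildtype), and 5 were negative. Of 14 blood markers it was 64.8 to 73.5 CPM in the knockout and 55.5 to 59.9 CPM in wildtype, with HBG1, MPO and SPI1 at 0 in all libraries. TAL1 carried the higher sum, and without it the sum was 9.37 to 11.7 CPM in the knockout and 27.2 to 30.7 CPM in wildtype. Of the 8 blood markers tested, TAL1 rose, HCLS1 and RUNX1 fell, and the median log2 fold change was -0.56, against -0.02 for all tested genes. Leaving out MAP2 and TAL1 was chosen after their values were seen. Of 7 fibroblast markers it was 11.4 to 15.6 CPM in the knockout and 14.3 to 17.9 CPM in wildtype, with LUM at 0 throughout. No neuron marker was at 0 in all libraries. The share called was 37.5% of the tested neuron markers and 37.5% of the tested blood markers, against 4.46% of all tested genes. Of the 5 tested fibroblast markers 0 were called. The marker lists were chosen with earlier results known, so nothing is read from these shares. The part of these differences in the results was not tested. All libraries are of the HAP1 line. In bulk RNA, fewer cells that express a gene and less RNA per cell cannot be told apart.

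TCEAL9, formerly WBP5 for its binding to WW domains, had 2, 0 and 1 counts in the knockout libraries, against 434, 234 and 338 in wildtype. As levels these were 0.103, 0 and 0.0364 CPM in the knockout and 17.1, 8.69 and 18.1 CPM in wildtype. Every knockout library was under the floor of 3 counts, while the lowest wildtype library, replicate 2, held 234 counts. The 3 knockout counts against 1006 in wildtype amount to 0.29% of the wildtype level, with an exact 95% interval of 0.0597% to 0.849% that covers counting error only. In wildtype TCEAL9 stood at the 46.6th percentile of the 16954 tested genes, well above the limit of detection.

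TCEAL8, a little-studied member of the same subgroup, had 1, 0 and 0 counts in the knockout libraries, against 55, 88 and 47 in wildtype. The wildtype levels were 2.16, 3.27 and 2.52 CPM, at the 24.9th percentile of tested genes. The groups do not overlap, and 1 count against 190 amounts to 0.512% of the wildtype level (exact 95% interval 0.0129% to 2.88%, counting error only). Among the 578 tested genes of chromosome X, TCEAL9 and TCEAL8 had the second and the third lowest fitted log2 fold change. Among all 16954 tested genes they ranked 4 and 6 from the lowest. Fitted fold changes of genes with so few counts depend on the small count added in the fit, and the ratios of counts are therefore given instead.

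In wildtype replicate 2 the pair moved apart. TCEAL9 was lowest there, at 8.69 CPM, whereas TCEAL8 was highest there, at 3.27 CPM. Both were at or below 1 count in knockout replicate 2 and knockout replicate 3.

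The members on either side of the pair kept their reads. BEX4, which lies next to TCEAL8 and encodes a protein that binds tubulin, had 24.5, 28.4 and 30.5 CPM in the knockout libraries, against 16.8, 24.1 and 15.3 CPM in wildtype. All 3 knockout libraries lay above all 3 wildtype libraries, though the gap between the lowest knockout value and wildtype replicate 2 was small. The mean was 27.8 ± 3.05 CPM in the knockout and 18.7 ± 4.70 CPM in wildtype (SD, n = 3 each). The log2 fold change, knockout over wildtype, was 0.57 (SE 0.17, 95% interval 0.19 to 0.94), and it was 0.80 without wildtype replicate 2.

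TCEAL4, TCEAL3 and TCEAL1 lie beyond BEX3 and RAB40A. TCEAL4 had 47.4, 55.8 and 50.4 CPM in the knockout libraries, against 39.8, 58.6 and 36.5 CPM in wildtype. The groups overlap through wildtype replicate 2, which was the highest of all 6, and the log2 fold change was 0.19 (SE 0.16, 95% interval -0.17 to 0.54). Without that library it was 0.43. TCEAL3 had 11.1, 11.6 and 13.2 CPM in the knockout libraries, against 11.3, 12.5 and 10.2 CPM in wildtype. These values are interleaved, and the log2 fold change was 0.07 (SE 0.15, 95% interval -0.26 to 0.41).

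TCEAL1, described as a nuclear phosphoprotein that modulates transcription, had 16.4, 21.9 and 15.6 CPM in the knockout libraries, against 16.3, 21.3 and 15.4 CPM in wildtype. Same-numbered libraries had close values, with replicate 2 the highest in each genotype, though the numbers were not taken to pair the samples. The log2 fold change was 0.02 (SE 0.17, 95% interval -0.36 to 0.40), so a change of the size seen in TCEAL8 or TCEAL9 lies far outside the interval of each of these 3 genes.

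BEX1 and BEX2 were at or under the floor in both genotypes. BEX1, a p75 neurotrophin receptor interactor, had 0, 0 and 0 counts in the knockout libraries and 0, 0 and 1 in wildtype. BEX2, which has been described to bind the blood factor LMO2, had 1, 2 and 2 counts in the knockout and 3, 2 and 1 in wildtype. For BEX2 the ratio of knockout to wildtype level was 0.81 with an exact 95% interval of 0.196 to 3.19, so a change within that interval was not detectable at this depth. For BEX1 the interval had an upper bound of 37.9, and a loss could not have been seen.

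**Figure D1:**
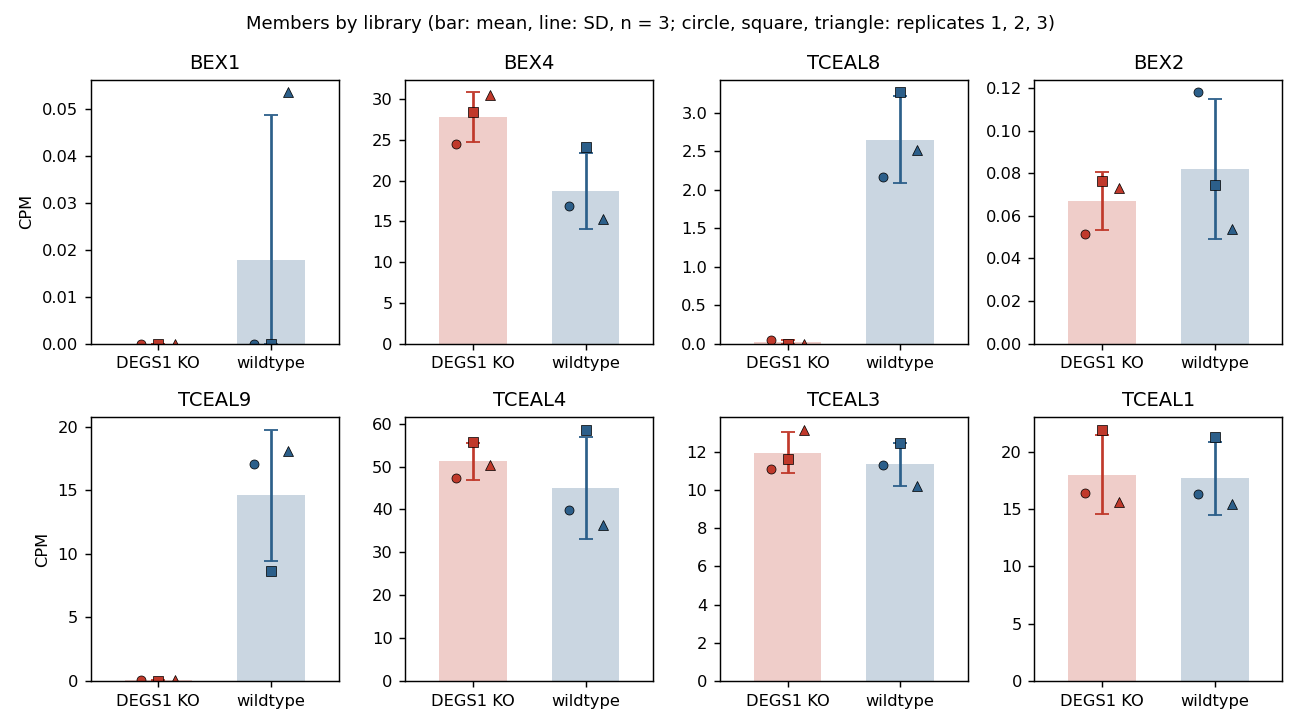
Level of each member in every library, in CPM on linear axes from 0, with DEGS1 knockout left of wildtype. Bars are means and lines are SD over 3 libraries (cut at 0), and symbols are replicates 1, 2 and 3. TCEAL8 and TCEAL9 lie at or near 0 in all 3 knockout libraries, BEX4 lies higher in the knockout, TCEAL4, TCEAL3 and TCEAL1 overlap, and BEX1 and BEX2 stay under 0.12 CPM.

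Over the 6 members tested, 2 lay lower in every knockout library, 1 lay higher, and the others overlapped. BEX1 and BEX2, which were not tested, also overlapped. Of all tested genes, 20.8% did not overlap between genotypes, with the knockout lower in 11.6% and higher in 9.24%. At an edgeR adjusted p under 0.05 over the whole table, TCEAL8 and TCEAL9 were called, 2 of the 6 members tested, both lower in the knockout. Of all tested genes 4.46% were called, 2.95% as lower and 1.51% as higher in the knockout. BEX4 was also called in 4 of 13 other settings and TCEAL4 in 1, the fit without wildtype replicate 2, in which 22.1% of all tested genes were called. Since the members were chosen with this comparison in view, nothing is read from their calls or from the share of members called.

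The reads of the members could be told apart in most of their length. Of the stretches of 75 bases, the read length, in the coding transcripts of GENCODE release 29, none of TCEAL8, TCEAL9, TCEAL4 or BEX4 recurred in a transcript of another gene. For TCEAL3 6.27% recurred, in TCEAL5 and TCEAL6, and for TCEAL1 6.98% recurred, in a transcript annotated to TCEAL3. Counts of TCEAL1 and TCEAL3 are uncertain to that extent. BEX1 and BEX2 shared a single stretch.

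Levels were also set per kilobase of the longest coding transcript, so that genes can be compared. In wildtype the order from high to low was TCEAL4 at 28.6 ± 7.60, TCEAL1 at 14.7 ± 2.64, BEX4 at 14.1 ± 3.54, TCEAL3 at 9.29 ± 0.921, TCEAL9 at 7.54 ± 2.66 and TCEAL8 at 2.17 ± 0.462 CPM per kb (SD, n = 3). Among neighbours in this order, TCEAL1 and BEX4 overlapped, as did TCEAL3 and TCEAL9, and the other neighbours did not. BEX2 and BEX1 followed at 0.0761 ± 0.0305 and 0.0207 ± 0.0358 CPM per kb, and these overlapped.

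In the knockout the order was TCEAL4 at 32.6 ± 2.73, BEX4 at 20.9 ± 2.30, TCEAL1 at 14.96 ± 2.87 and TCEAL3 at 9.79 ± 0.882 CPM per kb (SD, n = 3). BEX2 stood at 0.0621 ± 0.0126, TCEAL9 at 0.0239 ± 0.0268 and TCEAL8 at 0.0140 ± 0.0242 CPM per kb. The 4 upper genes did not overlap with their neighbours in this order, while BEX2 overlapped with TCEAL9 and TCEAL9 with TCEAL8. TCEAL9 and TCEAL8 had thus come to the level of BEX2 and BEX1, the members that were nearly silent in wildtype too. The coding transcripts of TCEAL9 run from 699 to 1938 bases, so its place in the order depends on which of them the cells used, which the counts do not show.

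**Figure D2:**
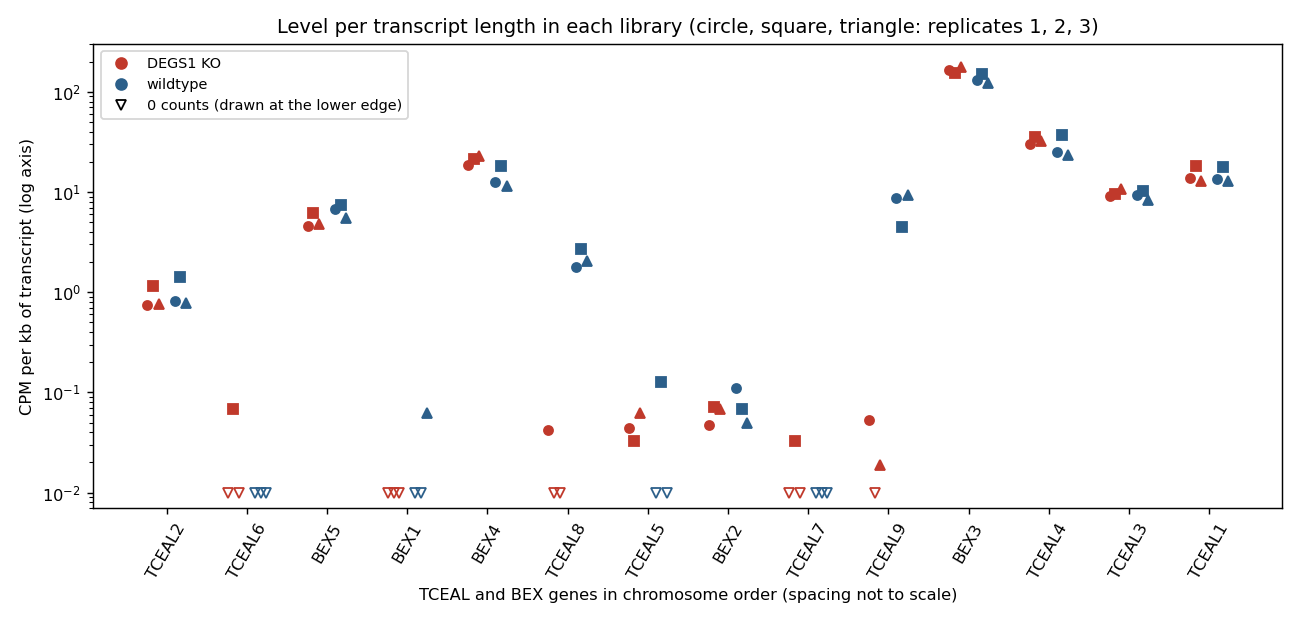
Level per kilobase of the longest coding transcript for all 14 TCEAL and BEX genes in chromosome order, on a log axis, with DEGS1 knockout left of wildtype. Each symbol is a library, and open triangles at the lower edge are libraries with 0 counts. TCEAL8 and TCEAL9 fall to the level of TCEAL5, BEX2 and TCEAL7 between them in the knockout, while BEX4 and BEX3 on either side keep theirs.

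The remaining family genes were taken by name, though with earlier results of these data known, and were tested. BEX3, next to TCEAL9 and known as NADE, a mediator of cell death that binds the p75 receptor, was the most abundant of the family. It had 153, 141 and 161 CPM in the knockout libraries, against 121, 139 and 113 CPM in wildtype. All knockout libraries lay above all wildtype libraries, by a narrow margin. The log2 fold change was 0.28 (SE 0.12, 95% interval 0.02 to 0.55, edgeR adjusted p = 0.267). Without wildtype replicate 2 the edgeR adjusted p was 0.0146, in a fit that called 22.1% of all tested genes.

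BEX5 differed by -0.34 on the log2 scale (SE 0.22; adjusted p = 0.479, edgeR), with 3.90, 5.28 and 4.16 CPM in the knockout and 5.78, 6.35 and 4.77 CPM in wildtype. TCEAL2 differed by -0.19 (SE 0.37; adjusted p = 0.835, edgeR) at 0.821, 1.26 and 0.838 CPM in the knockout and 0.904, 1.56 and 0.857 CPM in wildtype. Both overlapped between genotypes. TCEAL5, TCEAL6 and TCEAL7 were under the filter, with 4, 2 and 1 counts over the knockout libraries and 4, 0 and 0 over the wildtype libraries. TCEAL7 is known as a gene that some tumours silence. Of the 3 tested genes of this list, 0 were called by edgeR, 0 by the DESeq2 Wald test, and 1 had an unadjusted p under 0.05, BEX3, against 16.5% of all tested genes. Their median log2 fold change was -0.19, against -0.02 for all tested genes. Without wildtype replicate 2, BEX3 was the 1 that passed, in a fit that called 22.1% of all tested genes.

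The GPRASP genes encode proteins that bind G protein-coupled receptors and sort them to the lysosome, and ARMCX genes encode relatives of theirs, some of them on mitochondria. Of 9 such genes in the region 7 were tested, and edgeR and the DESeq2 Wald test each called 0, with 1 (14.3%) at an unadjusted p under 0.05, against 16.5% of all tested genes. Their median log2 fold change was -0.06. ARMCX3 came nearest to a call, at a log2 fold change of 0.26 with an SE of 0.11 and an adjusted p of 0.28 (edgeR), with 63.3, 66.5 and 67.9 CPM in the knockout and 54.7, 62.0 and 48.8 CPM in wildtype. GPRASP1 had the most negative value of the list, -0.52 (SE 0.26, edgeR adjusted p = 0.363). It stood at 9.44, 10.7 and 7.51 CPM in the knockout and at 16.2, 7.69 and 15.9 CPM in wildtype, with wildtype replicate 2 within the knockout range. Without that library both genes passed, ARMCX3 with an adjusted p of 0.0176 and GPRASP1 with one of 0.00547 (edgeR). That fit called 22.1% of all tested genes.

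The others of this list varied less. GPRASP2 had a log2 fold change of -0.06 (SE 0.10) and GPRASP3, listed in the table under its older symbol BHLHB9, one of -0.14 (SE 0.13). ARMCX4, ARMCX5 and ARMCX6 stood at -0.13 (SE 0.34), 0.09 (SE 0.10) and 0.20 (SE 0.15). ARMCX1 had 1 count in all, in wildtype, and ARMCX2 had none.

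The tested genes between and around the family were then taken as far as 10 on either side of the outermost GPRASP, ARMCX, TCEAL or BEX gene. The 39 neighbours other than members include the 3 tested family genes and the 7 tested GPRASP and ARMCX genes given above. Those genes are thus counted again here. Of the 39 neighbours, 2 rose and 0 fell in edgeR's test, or 5.13%, near the 4.46% of all tested genes. An unadjusted p under 0.05 was reached by 4, or 10.3%, BEX3 and ARMCX3 among them, against 16.5% of all tested genes. The median log2 fold change of the neighbours was -0.11. The nearest tested genes on the side of TCEAL2 were ZMAT1, ARMCX3 and ARMCX6, and on the side of TCEAL1 MORF4L2, RAB9B and TMSB15B, and none of the 6 was called. ZMAT1 had a log2 fold change of -0.42 (SE 0.23), MORF4L2, a subunit of histone acetyltransferase complexes, 0.21 (SE 0.14), RAB9B 0.32 (SE 0.33) and TMSB15B -0.11 (SE 0.28). Without wildtype replicate 2, 9 of the 39 neighbours were called, in a fit that called 22.1% of all tested genes. Among them were BEX3, ARMCX3 and GPRASP1, given above, and MORF4L2 (edgeR adjusted p = 0.0266). MTCYBP32, the tested gene before BEX4, was also among them (edgeR adjusted p = 0.021).

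Both neighbours that were called lie away from the pair. TMEM35A, a chaperone of nicotinic acetylcholine receptors, is separated from TCEAL8 by 26 tested genes. It had 8.57, 9.79 and 9.29 CPM in the knockout libraries, against 3.18, 4.57 and 3.16 CPM in wildtype, so it rose by 1.34 on the log2 scale (SE 0.21; adjusted p = 0.0029, edgeR), with no overlap. IL1RAPL2, a relative of the interleukin 1 receptor accessory protein, is separated from TCEAL9 by 12 tested genes. It had 57, 14 and 85 counts in the knockout libraries, against 1, 1 and 0 in wildtype, a ratio of knockout to wildtype level of 75.8 (exact 95% interval 20.6 to 632, counting error only; edgeR adjusted p = 0.00263). Knockout replicate 2 was the lowest of its group and still above every wildtype library.

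**Figure D3:**
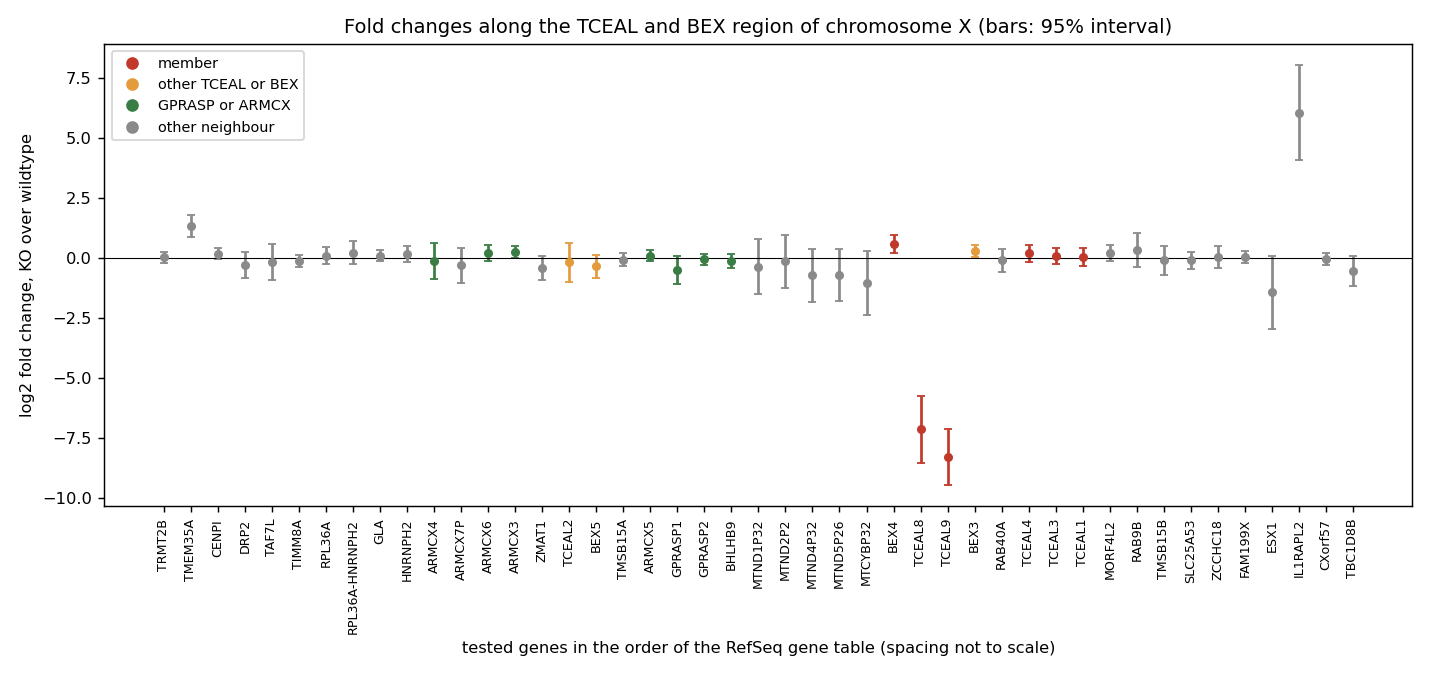
Log2 fold change, knockout over wildtype, of the 6 tested members and their 39 tested neighbours in the order of the RefSeq gene table, with 95% intervals, spacing not to scale. The points of TCEAL8 and TCEAL9 stand together far below 0 between BEX4 and BEX3, and their depth depends on the count added in the fit. TMEM35A and IL1RAPL2 are the neighbours that were called.

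Chromosome X outside the members was taken as a whole. The median log2 fold change of the 572 tested chromosome X genes that are not members was -0.03, against -0.02 for all tested genes. Of these 572, 18 rose and 23 fell, or 7.17%, against 4.46% of all tested genes. This difference in shares was not tested.

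**Figure D4:**
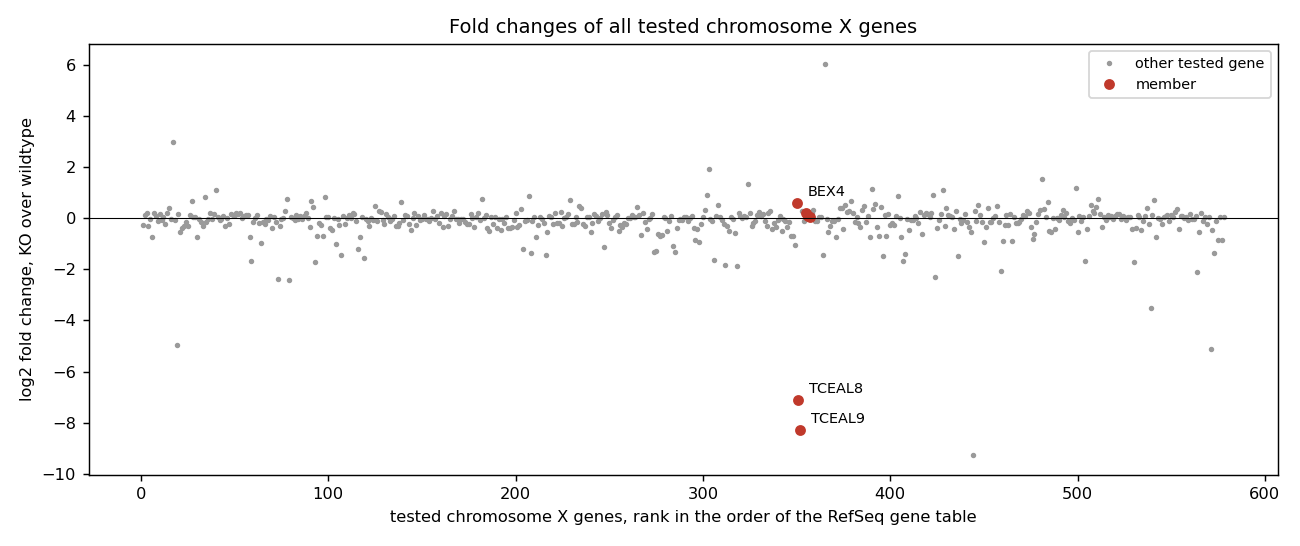
Log2 fold change, knockout over wildtype, of all 578 tested chromosome X genes against their rank in the order of the RefSeq gene table. Red points are the 6 tested members. TCEAL8 and TCEAL9 are the lowest on the chromosome after DCAF12L2. BEX4 and BEX3, at the ranks next to the pair, lie at 0.57 and 0.28. MTCYBP32, at the rank before BEX4, lies at -1.04 (edgeR adjusted p = 0.432). It had 7, 13 and 7 counts in the knockout libraries, against 24, 5 and 23 in wildtype. Without wildtype replicate 2 its edgeR adjusted p was 0.021, in a fit that called 22.1% of all tested genes.

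The genes whose pattern over the 6 libraries came closest to those of the pair lay mostly on other chromosomes. Chromosome X holds only 578 of the 16954 tested genes, so nothing is read from this. Likeness was the Euclidean distance between log2 CPM profiles with a prior count of 2 added, each centred on its own mean. It is carried by the difference between genotypes, which for genes near 0 counts in the knockout depends on the count added. For TCEAL9 the closest were FASTKD2 on chromosome 2 (distance 0.85), SLC17A9 on chromosome 20 (0.92) and IFI16 on chromosome 1 (1.92). DCAF12L2, at 2.11, lies on chromosome X with 91 tested genes between it and TCEAL9. It had 0, 0 and 0 counts in the knockout libraries, against 96, 51 and 75 in wildtype. ALDH1A2 on chromosome 15 followed at 2.17.

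For TCEAL8 the closest were PSMB8 (distance 0.36) and MB21D1 (0.86), both on chromosome 6, then ALDH1A2 (0.98), CTDSPL on chromosome 3 (0.98) and GABRA5 on chromosome 15 (1.03). ALDH1A2 was close to both. These distances are a description over 6 libraries of a pattern for which the pair was chosen, and no test is attached to them. The fitted log2 fold change of TCEAL8 was -7.13, and -4.81 with a prior count of 2. In the main fit that of PSMB8 was -5.04. Which genes come closest with another added count was not tested.

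Genes for the elongation machinery that the TCEAL genes are named after were also tested. Of 23 genes of RNA polymerase II elongation, among them TCEA1, TCEA2 and TCEA3, which encode TFIIS itself, edgeR and the DESeq2 Wald test each called 0, with 3 (13.0%) at an unadjusted p under 0.05 in edgeR, against 16.5% of all tested genes. Without wildtype replicate 2 edgeR called 7, in a fit that called 22.1% of all tested genes. Their median log2 fold change was 0.10, with 17 positive and 6 negative values. TCEA1 stood at 299, 299 and 310 CPM in the knockout and 266, 305 and 252 CPM in wildtype, a log2 difference of 0.14 (SE 0.12; adjusted p = 0.614, edgeR). The gene with the smallest p was CDC73, a subunit of the PAF1 complex. It had 53.4, 70.8 and 55.7 CPM in the knockout libraries, against 80.3, 92.7 and 76.2 CPM in wildtype, a difference of -0.47 on the log2 scale (SE 0.13; adjusted p = 0.0735, edgeR). Its groups do not overlap, and 6 of the 13 alternatives called it, including those that left out knockout replicate 2 (0.0368) or wildtype replicate 2 (0.039).

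Of 16 genes described as partners of BEX proteins or as parts of p75 receptor signalling, 12 were tested, and 2 rose and 1 fell, or 25%, against 4.46% of all tested genes. Without wildtype replicate 2 the calls numbered 6, in a fit that called 22.1% of all tested genes. Of the 12, 5 (41.7%) had an unadjusted p under 0.05, against 16.5% of all tested genes. This list was chosen with earlier results known, so nothing particular to it is read from these shares. The median log2 fold change was 0.07. NGFR, the p75 receptor itself, stood at 1.18, 0.421 and 1.39 CPM in the knockout and at 1.18, 0.520 and 1.18 CPM in wildtype, a log2 difference of 0.06 (SE 0.48; adjusted p = 0.961, edgeR). LMO2, described as a partner of BEX2, was at 1, 1 and 2 counts in the knockout and 1, 1 and 0 in wildtype, and was not tested.

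MAGED1, known as NRAGE, a p75 receptor interactor that is also on chromosome X, rose. It had 342, 372 and 350 CPM in the knockout libraries, against 201, 244 and 189 CPM in wildtype, which is 0.75 higher on the log2 scale (SE 0.13; adjusted p = 0.00724, edgeR). The call was lost without wildtype replicate 1 (0.052). TAL1, a blood transcription factor that works in a complex with LMO2, rose by 1.04 (SE 0.13, edgeR adjusted p = 0.000563), to 59.6 ± 5.79 CPM in the knockout, against 29.03 ± 4.01 CPM in wildtype (SD, n = 3 each). TAL1 is also among the blood markers whose sum is given above.

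BDNF, a neurotrophin, fell. It had 0, 2 and 2 counts in the knockout libraries, against 22, 17 and 12 in wildtype, a fitted log2 difference of -3.60 (SE 0.62; adjusted p = 0.00578, edgeR). All knockout libraries were under the floor of 3 counts, so the size of this fold is uncertain.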

How the data were processed

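RNA was sequenced from 6 HAP1 libraries with a stranded total RNA kit and single reads of 75 bases, per the labels' protocols. The deposited values are whole-number read counts for each gene symbol. The submitters' processing notes name bcl2fastq 2.20 and the build hg19. Which aligner, counter, annotation and strand setting made them is not given in the sources used here.

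The whole table was fitted with edgeR 4.0.16 in R 4.3.3: trimmed mean of M values, edgeR's expression filter by genotype, prior count 0.125, and genotype as the only term in robust quasi-likelihood F tests. A gene was called where its p, adjusted by Benjamini-Hochberg over 16954 tested genes, was under 0.05. Each SE was obtained by dividing the size of the log2 fold change by the root of F. Count ratios use exact conditional binomial 95% intervals on scaled library sums. These intervals, and the floor of 3 counts, reflect counting error alone, because the reads carry no molecular identifiers and need not be independent molecules. No pair of replicates agreed within sampling noise (chi-square per degree of freedom 11.7 to 48.2). The fit was tested on simulated counts.

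RefSeq GRCh38.p14 placed 27330 symbols (77.6%). As its build is not that of the counts, it gave only names, gene order and promoter windows, whose coordinates are of GRCh38.p14. Of 96 list genes 96 were matched, 4 through an older symbol. Transcript lengths came from GENCODE release 29.

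The members and lists were chosen with earlier results of these data known. Named genes are the members, the detected TCEAL, BEX, GPRASP and ARMCX genes, called neighbours and the 3 nearest tested genes on each side, called genes of the elongation and p75 lists or the one with the smallest p, and the 5 genes closest in profile to TCEAL9 and to TCEAL8. LMO2, NGFR, TCEA1 and the named marker genes were added after their values were seen. The alternatives were the Wald test or only the size factors of DESeq2 1.42.0, scaling by upper quartile or by total count, filtering at 1 CPM in 3 libraries or not at all, a block for the replicate number, leaving out each library, other prior counts, and subtracting the chromosome X median.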

Additional observations from a re-analysis of the deposited data

How the results depend on the processing

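The fitted size of the change in TCEAL8 and TCEAL9 depended on the prior count. TCEAL8 stood at -7.13, and at -6.27 with a prior count of 0.5 and -4.81 with one of 2, and from -9.04 to -6.59 with 1 library left out. TCEAL9 stood at -8.30, at -6.88 with a prior count of 2, and from -9.25 to -7.71 with 1 library left out. The log2 fold changes of TCEAL1, TCEAL3, TCEAL4 and BEX4 moved by less than the spread between replicates in every setting. With 1 library left out they ranged from -0.14 to 0.19 for TCEAL1, 0.0041 to 0.15 for TCEAL3, 0.058 (without wildtype replicate 3) to 0.43 (without wildtype replicate 2) for TCEAL4, and 0.44 to 0.80 (without the same 2 libraries) for BEX4. The whole-table count of 756 calls ranged from 380 without knockout replicate 3 to 3825 without wildtype replicate 2, with 424 without knockout replicate 1 and 441 without wildtype replicate 1. The 2 called neighbours became 1 under the filter of 1 CPM in 3 libraries, which removed IL1RAPL2, and ranged from 2 to 9 with 1 library left out. Called family genes outside the members ranged from 0 to 1 and called GPRASP and ARMCX genes from 0 to 2, the upper value in each case without wildtype replicate 2. The chromosome X median of -0.03 was -0.092 with library size only, and from -0.061 to -0.0020 with 1 library left out. Same-numbered libraries did not deviate together in every pair (r = 0.213, 0.37 and -0.124), and although same-numbered libraries share a code in the labels, its meaning is not given, so the numbers were not taken to pair the samples. With the replicate block 1082 genes were called, BEX4 (log2 fold change 0.59) among them, and 2 neighbours and 0 of either other list. Depth limits BEX1, BEX2, TCEAL5, TCEAL6 and TCEAL7, in which a change within a wide interval could not be detected. In BEX1, TCEAL6 and TCEAL7, with at most 1 count over the wildtype libraries, a loss could not be detected either. For BEX2 and TCEAL5 the ratio of knockout to wildtype level had lower bounds of 0.196 and 0.181, from counting error only. The ratios of TCEAL8 and TCEAL9, 0.00512 and 0.0029, lie below both bounds. All wildtype counts of TCEAL5 were in replicate 2, and its bound depends on that library.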
